A study of Mus musculus with 2 samples.

Results

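The homeostatic fibroblast genes described here are 10 genes listed by symbol, namely Pi16, Scara5, Dpep1, Smoc2, Tcf21, Entpd2, Kcnk2, Cd34, Gsn and Clec3b. All 10 were present among the 21745 genes counted in both libraries of a mouse heart Drop-seq study, in which droplets give each cell a barcode and each captured transcript molecule a unique molecular identifier (UMI). The MI library came from 1 heart of a male C57BL6/J wild-type mouse taken 14 days after the left anterior descending artery of the heart had been tied off for good. The Sham library pooled 4 hearts of male C57BL6/J wild-type mice taken 14 days after the same operation without the ligature. Mice were 8 to 10 weeks old. With 1 library per condition there was no replicate and no test between conditions, so every interval below is a 95% interval for counting error only, and differences between animals are not covered.

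Fibroblasts of the uninjured heart maintain the interstitial and adventitial matrix, and after an infarct they proliferate, secrete collagen and turn on actin-based contractile genes. The 10 genes are commonly used to recognise fibroblasts before that change. Among the secreted and matrix-associated products, Pi16 encodes a peptidase inhibitor that marks adventitial fibroblasts in several mouse tissues, Smoc2 a calcium-binding matricellular protein, and Clec3b the plasminogen-binding lectin tetranectin. Gsn encodes gelsolin, which severs actin filaments and also has a secreted form. On the cell surface, Scara5 is a scavenger receptor that takes up ferritin, Dpep1 a dipeptidase, Entpd2 an enzyme that degrades extracellular nucleotides, Kcnk2 the mechanosensitive potassium channel TREK-1, and Cd34 a sialomucin also found on capillary endothelium and blood progenitors. Tcf21 is a basic helix-loop-helix transcription factor required in the mouse embryo for epicardial cells to become cardiac fibroblasts.

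All 10 are protein-coding genes on 7 chromosomes of GRCm38. Pi16 lies at chr17:29317680-29330593 and Smoc2 at chr17:14279506-14404790, both on the plus strand. Scara5 lies at chr14:65666403-65764826, Dpep1 at chr8:123186242-123201812 and Clec3b at chr9:123150946-123157432, all on the plus strand. Entpd2 at chr2:25395874-25401321 and Gsn at chr2:35256380-35307892 share a chromosome on the plus strand. Cd34 at chr1:194938819-194961279 lies on the plus strand, Kcnk2 at chr1:189207930-189402273 on the minus strand, and Tcf21 at chr10:22817281-22820174 on the minus strand. Exons of Pi16, Cd34 and Kcnk2 overlap an antisense gene in the GENCODE annotation, and those of Entpd2 overlap its same-strand neighbour Npdc1. No source used here says how such reads were counted, so counts of these 4 genes are less certain than the others.

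RefSeq start-site windows, each running from 250 bases before to 50 bases after a transcription start in GRCm38.p6, were matched for 7 of the 10 genes and gave 12 windows. Scara5, Smoc2 and Clec3b were not matched. The windows are shown as background, because Tcf21, itself in the list, encodes a factor that binds E-boxes. The windows of Pi16 (chr17:29318632-29318931, plus strand), Dpep1 (chr8:123185985-123186284, plus strand) and Tcf21 (chr10:22820094-22820393, minus strand) read 5′ to 3′ as follows, with the E-box CAGCTG in capitals where it occurs.
Pi16 promoter: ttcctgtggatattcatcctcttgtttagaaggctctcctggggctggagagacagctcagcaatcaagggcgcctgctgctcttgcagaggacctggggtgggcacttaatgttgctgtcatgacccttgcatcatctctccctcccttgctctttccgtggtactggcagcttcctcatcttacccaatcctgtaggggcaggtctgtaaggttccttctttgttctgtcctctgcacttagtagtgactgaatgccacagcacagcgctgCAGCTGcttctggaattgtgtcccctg
Dpep1 promoter: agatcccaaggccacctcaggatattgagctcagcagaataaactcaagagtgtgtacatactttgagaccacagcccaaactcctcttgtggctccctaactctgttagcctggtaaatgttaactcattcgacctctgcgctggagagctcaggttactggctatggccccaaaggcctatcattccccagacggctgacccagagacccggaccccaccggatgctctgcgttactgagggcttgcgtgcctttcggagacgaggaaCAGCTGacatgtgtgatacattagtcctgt
Tcf21 promoter: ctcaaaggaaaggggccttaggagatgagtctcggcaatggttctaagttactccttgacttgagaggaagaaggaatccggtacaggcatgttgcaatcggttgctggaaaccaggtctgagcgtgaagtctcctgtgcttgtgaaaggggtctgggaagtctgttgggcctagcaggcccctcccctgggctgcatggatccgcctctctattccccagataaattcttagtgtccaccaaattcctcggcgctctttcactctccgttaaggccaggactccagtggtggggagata
CAGCTG, which reads the same on both strands, was present in 6 of the 12 windows, those being windows of Pi16, Dpep1, Kcnk2 and Gsn, and in 16.3% of all 32851 mouse windows of the same length. The wider E-box CANNTG, which includes CAGCTG, was in 9 of 12 windows and in 72.3% of all windows. TGACTCA, the AP-1 type motif, was in 2 of 12 windows against 5.2% of all, and neither TATAAA (13.6% of all) nor the CArG box of smooth muscle promoters (1.63% of all) was found in any of the 12. Both strands were searched for each motif. Kcnk2 supplied 4 of the 12 windows and Gsn 3, so these genes weigh more in the counts. These counts describe letters in these windows and were not linked to any binding measurement. A role of Tcf21 in the difference between the libraries was not tested.

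The MI library held 8555 barcodes with a median of 2466 UMIs and the Sham library 6337 barcodes with a median of 1424 UMIs, and 5 barcodes occurred in both libraries. After filters and removal of called doublets, 8294 MI cells and 5969 Sham cells remained. Cells were assigned to types by the share of their UMIs from 8 sets of marker genes, none of which included any of the 10 genes. Fibroblast-gated cells, with at least 1% of UMIs from Col1a1, Col1a2, Col3a1 and Dcn, numbered 3249 in MI (39.2% of kept cells) and 1810 in Sham (30.3%). Their median depth was 5235 UMIs in MI and 1489.5 UMIs in Sham. In these fibroblast-gated cells, endothelial markers made up 0.00861% of UMIs in MI and 0.0114% in Sham, and myeloid markers 0.0198% in MI and 0.00907% in Sham, with every marker of both lists detected. Mural markers made up 0.0102% in MI and 0.0072% in Sham, and mesothelial markers 0.00921% in MI and 0.00174% in Sham.

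The first question was how the 10 genes differed between fibroblasts of the infarcted and the sham-operated heart. All 10 were lower in MI, by 6.30-fold for Tcf21 up to 95.4-fold for Clec3b, as shares of the summed UMIs of fibroblast-gated cells in CPM (counts scaled to 1000000 UMIs). Among all 13978 genes with at least 20 UMIs over both libraries in these cells, 19.9% were at least 2-fold lower, against 10 of 10 here. The 10 genes, and the gene lists used below, were chosen with earlier results of these data known. Such contrasts with all genes are therefore descriptions and not independent support. The median log2 ratio of MI over Sham was −4.24 for the 10 genes and −0.20 for all genes.

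Of the secreted and matrix-associated products, Clec3b was counted at 13.5 CPM in MI (271 UMIs) against 1286 CPM in Sham (3913 UMIs), a log2 ratio of −6.58 (−6.76 to −6.40). Pi16 was at 23.6 CPM in MI and 1314 CPM in Sham, a log2 ratio of −5.80 (−5.94 to −5.66). Gsn, at 267 CPM in MI and 16502 CPM in Sham, had a log2 ratio of −5.95 (−5.99 to −5.91). For these 3 genes the MI level was 55.6-fold to 95.4-fold lower than the Sham level. Smoc2 differed less, with 100.4 CPM in MI and 1115 CPM in Sham and a log2 ratio of −3.47 (−3.55 to −3.39).

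Among the surface receptors and enzymes, Scara5 had 4.98 CPM in MI (100 UMIs) against 394 CPM in Sham (1197 UMIs), a log2 ratio of −6.30 (−6.61 to −6.01). Dpep1 had 30.6 CPM in MI and 987 CPM in Sham, a log2 ratio of −5.01 (−5.14 to −4.89). Entpd2 had 46.6 CPM in MI and 350.4 CPM in Sham, for a log2 ratio of −2.91 (−3.04 to −2.78). The scavenger receptor and the dipeptidase were thus much further apart between the libraries than the nucleotidase. Cd34 had 66.3 CPM in MI and 661 CPM in Sham, for a log2 ratio of −3.32 (−3.42 to −3.22). The channel gene Kcnk2 had 7.02 CPM in MI (141 UMIs) and 67.1 CPM in Sham (204 UMIs), a log2 ratio of −3.26 (−3.58 to −2.94). The transcription factor gene Tcf21 showed the smallest difference of the 10, with 35.6 CPM in MI and 225 CPM in Sham and a log2 ratio of −2.66 (−2.81 to −2.50).

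Within the ranking of all 13978 genes, only 21 had a lower ratio than Clec3b, 31 than Scara5, 41 than Gsn, 45 than Pi16 and 81 than Dpep1. The other 5 had from 222 (Smoc2) to 486 (Tcf21) genes with a lower ratio. Differences were thus 32.3-fold or more for 5 of the genes and 6.30-fold to 11.1-fold for the other 5.

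Because MI fibroblast-gated cells held more UMIs each, the comparison was also made on mean UMIs per cell. On that scale Clec3b averaged 0.0834 UMIs per cell in MI and 2.16 in Sham, a log2 ratio of −4.70, and Scara5 had a ratio of −4.43. Pi16 averaged 0.146 in MI and 2.21 in Sham, a log2 ratio of −3.92, and Gsn 1.65 in MI and 27.7 in Sham, a log2 ratio of −4.07. Dpep1 stood at −3.13 and Smoc2 at −1.59. Cd34 (−1.44), Kcnk2 (−1.38) and Entpd2 (−1.03) came closer to a 2-fold difference, and Tcf21, at 0.220 UMIs per cell in MI and 0.377 in Sham (−0.78), was under 2-fold. So 9 of the 10 genes were at least 2-fold lower per cell, where 2.84% of all genes were, and the MI cells had fewer molecules of all 10 genes per cell despite their greater depth.

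**Figure D1:**
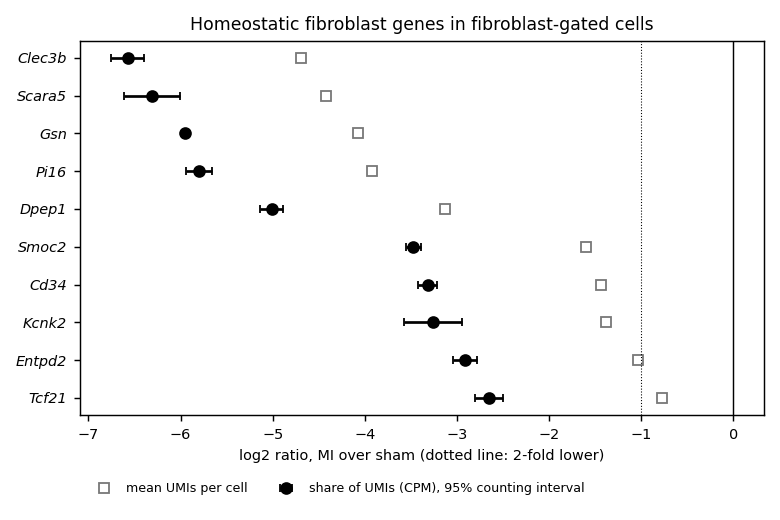
Log2 ratio of MI over Sham in fibroblast-gated cells for each of the 10 genes (rows), as share of UMIs (filled circles, with 95% counting intervals) and as mean UMIs per cell (open squares). All 10 circles lie below the dotted line of 2-fold lower, from −2.66 for Tcf21 to −6.58 for Clec3b, and 9 of 10 squares do, Tcf21 at −0.78 being the exception.

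The genes that defined the fibroblast gate were split. Dcn, the proteoglycan decorin, was lower in MI at 2178 CPM against 15967 CPM in Sham, while Col1a1, Col1a2 and Col3a1 had log2 ratios of 3.48, 2.34 and 2.28. Acta2, smooth muscle actin, was at 2032 CPM in MI and 6.25 CPM in Sham. These values describe the gated cells and follow in part from the gate itself.

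Other genes of resting fibroblasts were mostly lower as well, and injury genes higher. Of 20 further genes of uninjured fibroblasts, 15 were at least 2-fold lower in MI and 0 were higher by that factor, as 13.6% of all genes were. Their median log2 ratio was −2.90. The farthest from 0 were the matrix protein gene Tnxb (−7.43), the glucocorticoid-activating enzyme gene Hsd11b1 (−6.81), the transporter gene Abca8a (−6.46) and the chemokine gene Cxcl14 (−5.32). The 5 that were not 2-fold lower were Mfap5 (−0.03), Lum (−0.83), C4b (−0.98), Cd248 (−0.26) and Anxa3 (0.35). Of 12 injury matrix genes 11 were at least 2-fold higher in MI (median 4.50), among them Cthrc1 (8.32), Spp1 (7.48), Tnc (6.04) and Lox (5.11). Contractile genes other than Acta2 and Tagln were higher throughout, 10 of 10 by at least 2-fold (median 4.38), including Actg2 (7.07), Myl9 (5.36) and Tpm2 (5.11). Cnn1 had no UMI in Sham, and with that 0 set to 3 counts its log2 ratio was 6.34, with a lower limit of 6.04. Of 10 cell cycle genes 9 were at least 2-fold higher (median 2.91), for example Birc5 (4.26), Ccnb1 (3.84), Mki67 (3.60) and Cdk1 (3.39).

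The share of cells in which each gene was seen was compared after every cell had been thinned at random to 500 UMIs, which left no cell out. Gsn was seen in 13.1% of thinned MI fibroblast-gated cells and 98.7% of Sham cells (without thinning 65.4% of MI and 99.7% of Sham cells). Clec3b appeared in 0.831% of MI and 46.9% of Sham cells (unthinned 5.51% in MI and 79.4% in Sham), and Pi16 in 1.42% of MI and 33.8% of Sham cells (unthinned 9.36% in MI and 56.4% in Sham). Each of these genes was seen in a much larger share of Sham cells at equal depth.

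Smoc2 was seen in 4.62% of thinned MI and 39.7% of thinned Sham cells (unthinned 33.8% in MI and 72.4% in Sham), Dpep1 in 1.39% of MI and 37.0% of Sham cells (unthinned 13.8% in MI and 67.1% in Sham), and Cd34 in 3.05% of MI and 26.3% of Sham cells (unthinned 25.1% in MI and 55.1% in Sham). Scara5 was seen in 0.339% of thinned MI cells, that is 11 cells, and in 16.4% of Sham cells (unthinned 2.34% in MI and 38.8% in Sham). Entpd2 appeared in 2.46% of MI and 16.1% of Sham cells (unthinned 19.9% in MI and 41.0% in Sham), Tcf21 in 2.46% of MI and 10.4% of Sham cells (unthinned 15.4% in MI and 27.6% in Sham), and Kcnk2 in 0.339% of MI and 3.31% of Sham cells (unthinned 3.63% in MI and 9.39% in Sham). For comparison with a type that should lack most of these genes, 160 MI and 53 Sham lymphocyte-gated cells, with median depths of 1244.5 UMIs in MI and 1254 in Sham, were thinned the same way. Pi16, Scara5, Smoc2, Entpd2, Kcnk2 and Clec3b were seen in 0 of them in either library. The floor of 3 cells would be 1.88% in MI and 5.66% in Sham, and the upper limits of these zeros were 2.28% in MI and 6.72% in Sham. Gsn appeared in 0.625% of MI and 5.66% of Sham lymphocyte-gated cells. Dpep1 and Cd34 were each seen in 3.77% of Sham and 0% of MI lymphocyte-gated cells, and Tcf21 in 0.625% of MI and 0% of Sham. The Dpep1 share in Sham lymphocytes rested on 2 of 53 cells (0.46 to 12.98%). In MI the upper limit of Dpep1 in lymphocytes, 2.28%, was not below its 1.39% in thinned fibroblast-gated cells. As levels over all UMIs of the MI library, Pi16 and Dpep1 in fibroblast-gated cells (21.6 to 25.9 CPM and 28.2 to 33.1 CPM) lay above the upper limit of 16.0 CPM in lymphocytes. Scara5, Kcnk2 and Clec3b (4.05 to 6.05, 5.91 to 8.28 and 11.9 to 15.2 CPM) lay above their upper limits in the deeper sum of myeloid cells (1.09, 0.555 and 0.838 CPM), though not above that of lymphocytes.

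Counting the 10 genes cell by cell gave the same contrast. Of 3249 thinned MI fibroblast-gated cells, 2415 (74.3%) showed none of the 10, and 20 cells (0.616%) showed 3 or more, with a maximum of 4. Of 1810 Sham cells, 6 (0.331%) showed none and 1280 (70.7%) showed 3 or more, with a median of 3 and a maximum of 7. Without Gsn, the shares with 3 or more were 0.185% in MI and 42.5% in Sham.

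**Figure D2:**
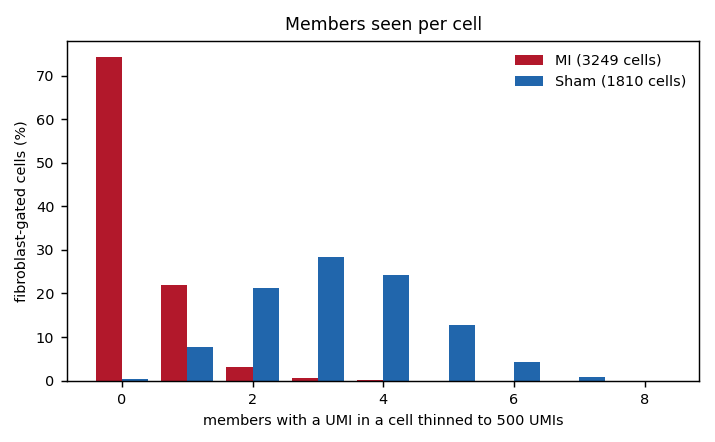
Share of fibroblast-gated cells (vertical axis, percent) by the number of the 10 genes with a UMI after thinning to 500 UMIs (horizontal axis), MI in red and Sham in blue. MI cells pile up at 0 genes (74.3%), while Sham cells centre on 3.

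Across cell types, the 10 genes peaked in fibroblast-gated cells of the Sham heart and less uniformly so in MI. In Sham all 10 had their highest level in fibroblast-gated cells among the 5 types with at least 50 cells in each library, and no interval overlapped that of the next type. In MI 5 of the 10 did, namely Dpep1, Smoc2, Tcf21, Entpd2 and Gsn, and for Tcf21 and Entpd2 the interval overlapped that of the next type. For Pi16 and Kcnk2 the highest type overlapped fibroblasts, and the highest level of Scara5 rested on 8 mesothelial UMIs. How many of all genes peaked in fibroblast-gated cells was not counted, so these counts describe the 10 genes only. The other types were endothelial (431 cells in MI, 1865 in Sham), myeloid (3357 in MI, 1249 in Sham), mural (94 in MI, 117 in Sham) and mesothelial cells (69 in MI, 64 in Sham).

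Cd34 was also counted at high levels in endothelial and mesothelial cells. In endothelial cells it had 251 CPM in MI and 356 CPM in Sham, giving a log2 ratio of −0.50 (−0.66 to −0.35), and in mesothelial cells 279 CPM in MI and 295 CPM in Sham, where the interval of the ratio included 0 (−0.57 to 0.44). In fibroblast-gated cells the same gene differed 9.97-fold. Cd34 was thus highest in fibroblasts of the Sham heart, at 661 CPM, and higher in mesothelial and endothelial cells than in the 66.3 CPM of fibroblasts in MI, the mesothelial and endothelial intervals overlapping each other. Mural cells had 13.5 CPM in MI and 139 CPM in Sham, and myeloid cells 5.42 CPM in MI and 14.1 CPM in Sham.

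Gsn was counted in every type. It had 140 CPM in MI mural cells against 1092 CPM in Sham mural cells, and 18.7 CPM in MI endothelial cells against 135 CPM in Sham. Myeloid cells had 128 CPM in MI and 192 CPM in Sham, a log2 ratio of −0.58 (−0.76 to −0.40), and mesothelial cells 120 CPM in MI (54 UMIs) and 125 CPM in Sham (20 UMIs). In MI the mural, myeloid and mesothelial intervals overlapped one another, and fibroblasts at 267 CPM stood above them.

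Pi16 in the Sham heart was ordered across types as fibroblast, mural (117 CPM), endothelial (50.2 CPM) and myeloid (9.93 CPM), with no overlap between neighbours. The 32 UMIs of Sham mural cells came from 10.3% of 117 cells, a clustering that the counting intervals do not cover. In MI the mesothelial level of 33.2 CPM (15 UMIs) was highest and overlapped the fibroblast level. Endothelial cells had 14.3 CPM, and myeloid (2.41 CPM) and mural cells (1.69 CPM, 1 UMI) overlapped each other. No Pi16 UMI was counted in Sham mesothelial cells. With that 0 set to a floor of 3 counts over the class, the mesothelial level was 1.77-fold higher in MI. The lower limit of the log2 ratio was 0.34.

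Clec3b stood out in the mesothelium. Mesothelial cells had 115 CPM in MI (52 UMIs) against 81.6 CPM in Sham (13 UMIs), with overlapping intervals, and in MI they exceeded fibroblasts at 13.5 CPM. Mural cells had 1.69 CPM in MI (1 UMI) and 91.6 CPM in Sham (25 UMIs in only 5.13% of cells). Endothelial cells had 0.492 CPM in MI (1 UMI) and 9.53 CPM in Sham. Myeloid cells had 0.150 CPM in MI (1 UMI) and 6.79 CPM in Sham.

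Scara5 was also highest in mesothelial cells of the MI heart, at 17.7 CPM (8 UMIs) against 6.27 CPM in Sham (1 UMI). Mural cells had 0 UMIs in MI and 33.0 CPM in Sham (9 UMIs in only 3.42% of cells). Endothelial cells had 0.984 CPM in MI and 2.02 CPM in Sham, and myeloid cells 0.301 CPM in MI and 1.05 CPM in Sham, with 2 to 7 UMIs behind each value.

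Smoc2 and Entpd2 had the mesothelium as their next type after fibroblasts in both libraries. Smoc2 had 22.2 CPM in MI and 119 CPM in Sham mesothelial cells, a log2 ratio of −2.43 (−3.69 to −1.25), and Entpd2 26.6 CPM in MI and 62.7 CPM in Sham. Smoc2 mural cells had 5.07 CPM in MI and 36.6 CPM in Sham, and Entpd2 mural cells 11.8 CPM in MI and 14.7 CPM in Sham. Both genes were at 6.27 CPM or less in endothelial and myeloid cells of both libraries.

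Dpep1 had mural cells as its next type, with 5.07 CPM in MI (3 UMIs) and 58.6 CPM in Sham (16 UMIs), and then myeloid cells, with 1.20 CPM in MI and 11.5 CPM in Sham, and endothelial cells, with 0.492 CPM in MI and 10.4 CPM in Sham. The myeloid and endothelial intervals overlapped in both libraries. Tcf21 likewise had 20.3 CPM in MI and 47.6 CPM in Sham mural cells, and 4.43 CPM in MI and 25.1 CPM in Sham mesothelial cells. Kcnk2 outside fibroblasts of the Sham heart had 1 UMI in mural cells and 0 in endothelial, myeloid and mesothelial cells. In MI it had 10.1 CPM in mural cells (6 UMIs), overlapping the fibroblast level of 7.02 CPM, and 5 UMIs in endothelial cells.

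**Figure D3:**
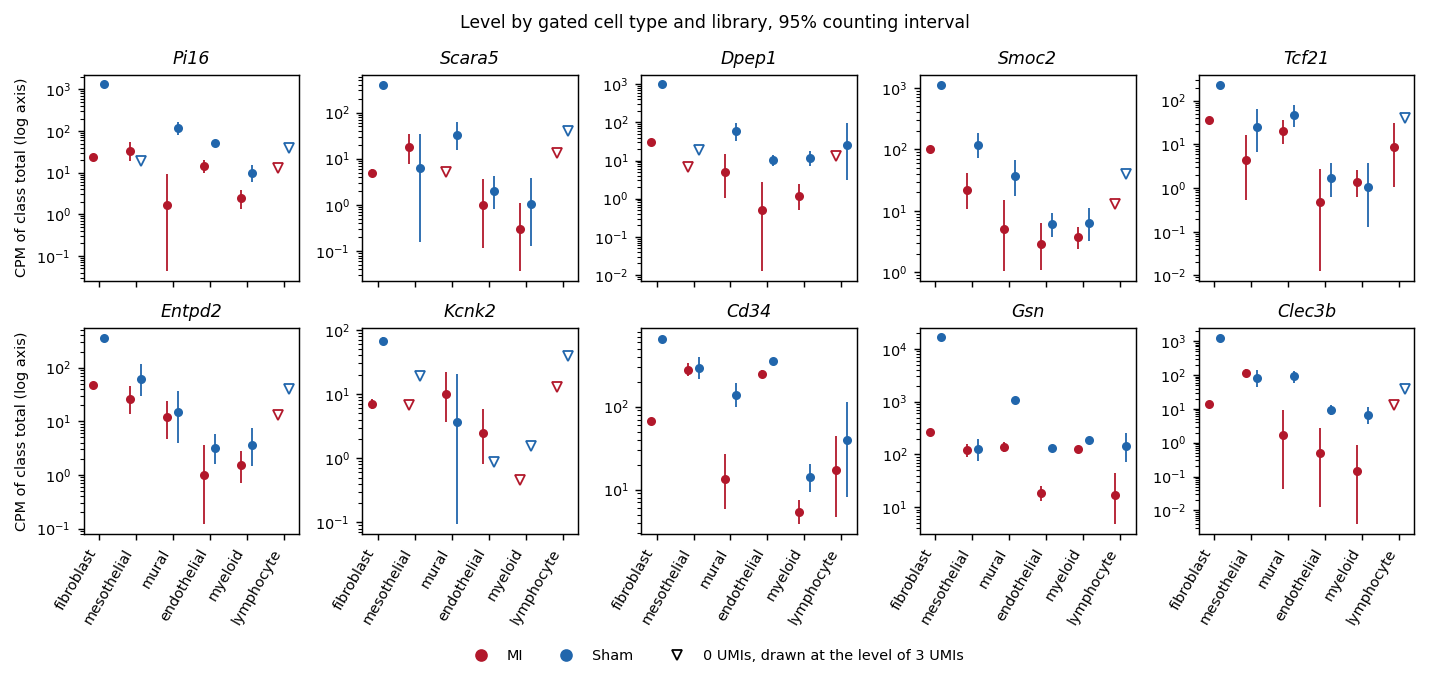
Level of each of the 10 genes (panels, CPM on a log axis) in 6 gated cell types (horizontal axis), MI in red and Sham in blue, with 95% counting intervals and open triangles where 0 UMIs were counted. The blue point of fibroblasts is the highest in all 10 panels, and the red and blue points of Cd34 lie close together in endothelial and mesothelial cells.

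Members with at least 20 UMIs over both libraries in a type were also counted against the background. In endothelial cells 6 qualified and 5 were at least 2-fold lower in MI, where 14.3% of all genes were. In mural cells 5 of 5 were at least 2-fold lower (20.4% of all genes), in myeloid cells 3 of 5 (12%) and in mesothelial cells 2 of 5, Smoc2 and Entpd2 (12.7%). None of these members was at least 2-fold higher, where 12.1% of all genes were in endothelial, 12.9% in mural, 9.8% in myeloid and 16.9% in mesothelial cells. These counts lean on the libraries in which the genes were high, since a gene passed the minimum through either. In mural cells Pi16 (1 UMI in MI, 32 in Sham) and Clec3b (1 in MI, 25 in Sham) passed, while Kcnk2 (6 in MI, 1 in Sham) did not. Among the genes counted as lower, the intervals of Tcf21 in mural, Entpd2 in mesothelial and Smoc2 in endothelial cells included 0. The counts therefore give no independent support. Fibroblast markers were a larger share of UMIs in MI, also in fibroblast-gated cells themselves, at 4.57% in MI and 2.38% in Sham. In mural cells these markers were at 1.48% in MI and 0.189% in Sham. In endothelial cells they were at 0.270% in MI and 0.0352% in Sham, and in myeloid cells at 0.171% in MI and 0.0191% in Sham. The part of free RNA from fibroblasts in the levels outside fibroblasts was not tested.

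The second question was how the genes varied among fibroblasts of the infarcted heart with the contractile genes. The 3214 MI fibroblast-gated cells with at least 1% of UMIs from Col1a1, Col1a2 and Col3a1 were divided by the share of their UMIs from Acta2 and Tagln, a smooth muscle actin-binding protein gene, into under 0.1% (1175 cells), 0.1 to 0.5% (1429 cells), 0.5 to 1% (521 cells) and at least 1% (89 cells). Most of the 10 genes were lower in cells with more Acta2 and Tagln, while Smoc2 was nearly level and Kcnk2 was not lower. In the highest over the lowest bin, 7 of 10 were at least 2-fold lower, where 17.7% of 11642 genes were. Only 1, Kcnk2 with 7 UMIs in the highest bin, was at least 2-fold higher, where 5.15% were. The median log2 ratio was −1.74 for the 10 genes and −0.16 for all genes.

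Clec3b had 37.8, 3.99, 0.253 and 0 CPM in the 4 bins from low to high Acta2 and Tagln, with 0 UMIs in the highest bin against 228 in the lowest. With that 0 set to 3 counts Clec3b was 8.63-fold lower, and the upper limit of its log2 ratio was −2.80. Scara5 had 11.8, 2.05, 0.758 and 0 CPM. With its 0 set to 3 counts it was 2.69-fold lower in the highest bin, with an upper limit of −1.09 for the log2 ratio. Pi16 had 52.9, 13.9, 4.04 and 4.39 CPM, a log2 ratio of the highest over the lowest bin of −3.59 (−5.88 to −2.03). In all 3 genes the intervals of the first and second bins did not overlap.

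Cd34 had 134, 44.2, 19.9 and 13.2 CPM, a log2 ratio of −3.35 (−4.49 to −2.42). Entpd2 had 84.1, 35.8, 20.5 and 14.6 CPM, a log2 ratio of −2.52 (−3.59 to −1.63). Tcf21 had 50.1, 35.5, 18.9 and 14.6 CPM (−1.78; −2.85 to −0.88), and Dpep1 43.0, 28.5, 19.9 and 13.2 CPM (−1.71; −2.85 to −0.76). These 4 genes were lower in each successive bin, although the 2 highest bins overlapped for all 10 genes.

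Gsn had 313, 249.9, 222 and 212 CPM, a log2 ratio of −0.56 (−0.82 to −0.32), and so stayed within 2-fold. Smoc2 had 108, 102.4, 90.2 and 86.3 CPM, with overlapping intervals in every neighbouring pair and a log2 ratio of −0.32 (−0.73 to 0.06). Kcnk2 had 4.31, 8.73, 6.82 and 10.2 CPM, with 26 UMIs in the lowest and 7 in the highest bin and a log2 ratio of 1.25 (−0.20 to 2.49). The 7 UMIs came from only 2.25% of the 89 cells, and 2.04% of cells in the lowest bin had a Kcnk2 UMI. The counting interval does not cover such clustering in few cells. Its step from the first to the second bin was upward with intervals that did not overlap.

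**Figure D4:**
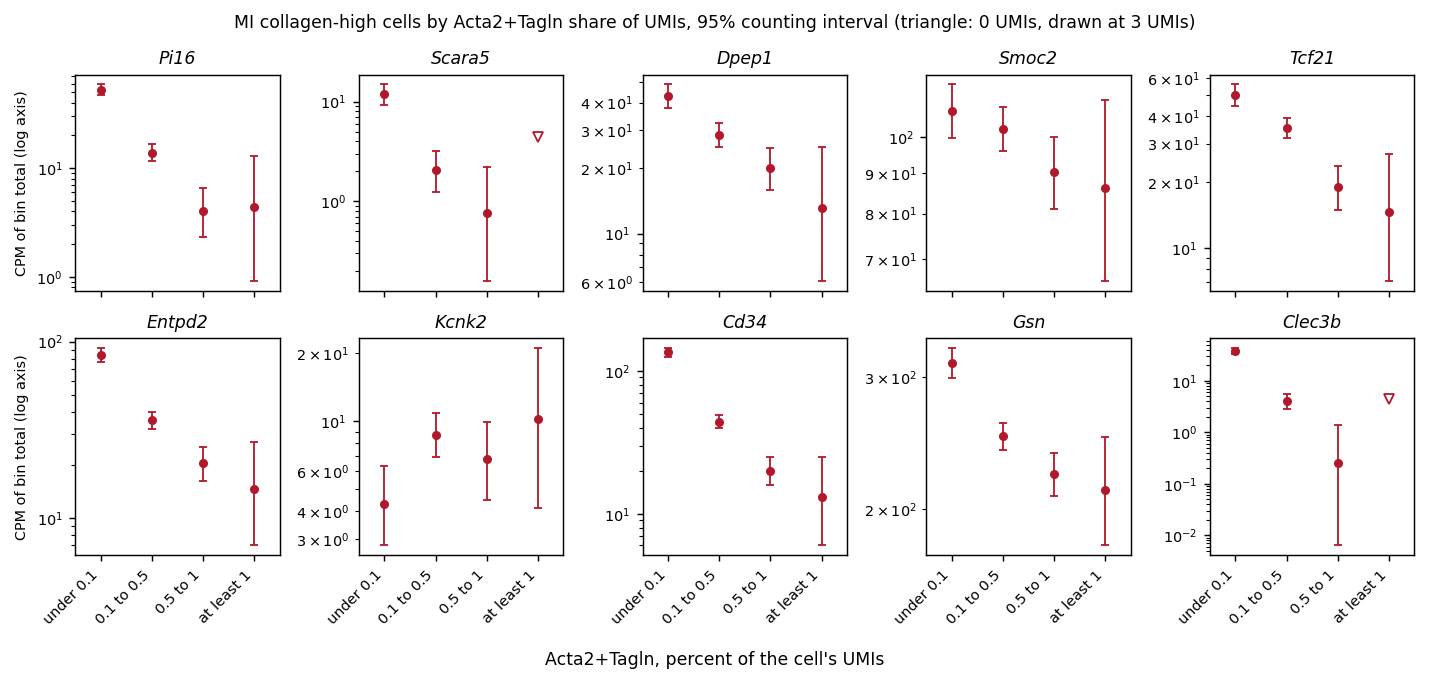
Level of each of the 10 genes (panels, CPM on a log axis, with 95% counting intervals) in MI collagen-high cells binned by the Acta2 and Tagln share of UMIs (horizontal axis, percent). Triangles mark bins with 0 UMIs and are drawn at the level of 3 UMIs, 4.39 CPM in the highest bin. Points step down from left to right for Cd34, Entpd2, Tcf21 and Dpep1, stay nearly level for Smoc2, and Kcnk2 is lowest in the first bin. Clec3b steps down until the triangle of its highest bin.

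With the upper bins joined, at least 0.5% over under 0.1%, 7 of 10 were again at least 2-fold lower, where 12.5% of all genes were, and 0 at least 2-fold higher, where 4.12% were. Clec3b had 1 UMI in the joined bins against 228 in the lowest, a log2 ratio of −7.46 (−12.77 to −4.96). Scara5 had 3 UMIs against 71, a log2 ratio of −4.19 (−6.50 to −2.58), and Pi16 19 against 319, a log2 ratio of −3.69 (−4.44 to −3.03). Kcnk2 had a log2 ratio of 0.76 (−0.02 to 1.56).

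Other genes sorted the cells as follows in the highest over the lowest bin. Of the 20 further genes of uninjured fibroblasts, 15 were at least 2-fold lower, where 17.7% of all genes were, and 1, Anxa3 (1.27), was higher by that factor, where 5.15% were. Their median was −1.85. Those whose interval lay farthest from 0 were the complement gene C3 (−4.93), C4b (−4.31), the complement regulator Cd55 (−4.13) and Ly6a (−3.53). All 10 contractile genes other than Acta2 and Tagln were at least 2-fold higher (median 3.14), 3 of 12 injury matrix genes (median 0.37) and 6 of 10 cell cycle genes (median 1.24). Postn, encoding periostin, had 2151, 2665, 3064 and 2930 CPM. Its log2 ratio was 0.45 (0.38 to 0.51), higher but within 2-fold. Median depth per cell differed along the bins at 4246, 5587, 6806 and 7540 UMIs. The share of cells with a UMI of Mki67 or Top2a was 18.8%, 30.7%, 35.3% and 28.1%. Deeper cells hold such a UMI more readily, so these are not shares of cycling cells.

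Epicardial genes moved with the bins as well. A UMI of Wt1, Lrrn4, Upk3b or Msln was present in 30.7%, 13.4%, 9.02% and 12.4% of cells from the lowest to the highest bin, and Wt1, an epicardial transcription factor gene, had 101, 30.6, 11.6 and 14.6 CPM. Without the cells that held such a UMI, 7 of 10 genes were at least 2-fold lower in at least 0.5% over under 0.1% (8.42% of all genes) and 0 higher (4.2%), with a median log2 ratio of −2.17. Gsn then had a log2 ratio of −0.88 (−0.995 to −0.757), Smoc2 of −0.72 (−0.91 to −0.53) and Kcnk2 of 0.22 (−0.60 to 1.05). Postn was at −0.08 (−0.11 to −0.04) without these cells and at 0.50 (0.47 to 0.54) with them.

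Inside the lowest bin, the 361 cells with and the 814 cells without an epicardial UMI differed gene by gene. The genes lower in cells with an epicardial UMI were Gsn (150 CPM with, 422 CPM without), Smoc2 (41.2 CPM with, 152 CPM without), Entpd2 (37.0 CPM with, 115 CPM without), Tcf21 (14.6 CPM with, 73.7 CPM without), Pi16 (24.96 CPM with, 71.5 CPM without) and Dpep1 (16.2 CPM with, 60.7 CPM without). Kcnk2 was lower too, at 0.832 CPM (2 UMIs) with and 6.63 CPM (24 UMIs) without. Cd34 was higher in cells with an epicardial UMI, at 161 CPM against 117 CPM without. Scara5 had 16.2 CPM with and 8.83 CPM without, with overlapping intervals, and Clec3b 37.4 CPM with and 38.1 CPM without. Median depth was 5459 UMIs in cells with and 3848 UMIs in cells without such a UMI, and deeper cells hold an epicardial UMI more readily.

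The MI cells with the least Acta2 and Tagln were also below the Sham level. In the lowest bin against Sham fibroblast-gated cells, all 10 genes were at least 2-fold lower, where 15.8% of all genes were and 13.1% were at least 2-fold higher. The differences were smallest for Entpd2, at 84.1 CPM in the MI bin against 350.4 CPM in Sham (4.17-fold lower), Tcf21 (4.48-fold) and Cd34 (4.92-fold). They were 24.8-fold for Pi16, 23.0-fold for Dpep1, 33.4-fold for Scara5, 34.0-fold for Clec3b and 52.7-fold for Gsn. Smoc2 and Kcnk2 were 10.3-fold and 15.5-fold lower.

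Finally, the genes were examined for subsets among Sham fibroblasts. At 500 UMIs per cell, 612 Sham cells had a Pi16 UMI and 1198 had none. Cd34 was higher in cells with Pi16, at 873 CPM against 529 CPM without, a log2 ratio of 0.72 (0.48 to 0.96). Scara5 was at 500 CPM with and 319 CPM without (0.65; 0.33 to 0.96), and Clec3b at 1595 CPM with and 1217 CPM without (0.39; 0.22 to 0.56).

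Gsn differed by a log2 ratio of 0.13 (0.08 to 0.18), and the intervals of Kcnk2, Tcf21, Entpd2 and Smoc2 included 0. Dpep1 was lower in cells with Pi16, at 928 CPM against 1130.2 CPM without, a log2 ratio of −0.28 (−0.49 to −0.08). Outside the 10 genes, Cd248, encoding endosialin, had a log2 ratio of 1.78 (1.28 to 2.30), and Hsd11b1 one of −1.21 (−1.57 to −0.87). Both were chosen for mention after their values were seen. In MI only 46 of 3249 cells had a Pi16 UMI at that depth, and of the other 9 members only Gsn had more than 4 UMIs in them, 18 against 517 in cells without, a log2 ratio of 1.28 (0.51 to 1.95).

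**Figure D5:**
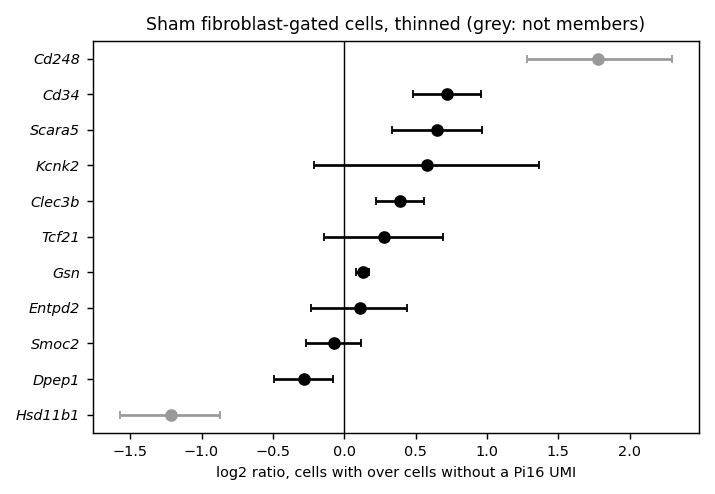
Log2 ratio of each gene (rows) in Sham fibroblast-gated cells with a Pi16 UMI over cells without one, at 500 UMIs per cell, with 95% counting intervals and the non-member genes Cd248 and Hsd11b1 in grey. Cd34 (0.72) and Scara5 (0.65) lie to the right of 0 and Dpep1 (−0.28) to its left.

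The genes with profiles most like the 10 were found over the 10 points given by 5 cell types in each library, which share library and depth, by Pearson correlation of log2(CPM + 10) with their mean standardised profile among 12482 genes. Htra3, a secreted serine protease gene, had the highest r at 0.993, with 41.5 CPM in MI and 1068 CPM in Sham fibroblast-gated cells. It was followed by Pcsk6 (0.956), Abca8b (0.955), Rgs17 (0.953), 6030408B16Rik (0.953), Il17d (0.951), Ptgfr (0.949) and Ms4a4d (0.948). Among the 10 genes themselves, each against the mean of the other 9, r was highest for Scara5 (0.964) and lowest for Kcnk2 (0.834) and Cd34 (0.523).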

How the data were processed

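The deposited values are UMI counts per gene and cell barcode, one table per library, which the authors had already limited to barcodes with at least 500 genes, a limit read from the values. The build mm10 and Seurat are named in the submitters' processing notes, without version or role. No source used here gives the aligner, the annotation or the use of strand. Counts are of transcript ends and are not length-scaled, so levels are compared within a gene. The labels' protocols also mention paraformaldehyde fixation and an aortic pressure gradient, whose place in this experiment is not explained there.

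Barcodes with at least 200 genes and at most 25% mitochondrial UMIs were kept, which removed 114 in MI and 34 in Sham. Scrublet, run per library through scanpy 1.11.5, marked 147 MI (1.74%) and 334 Sham barcodes (5.30%) as doublets, which were removed. The tables held 33275336 UMIs in MI and 11307405 UMIs in Sham, and 317 MI and 671 Sham barcodes that end in N were kept. A cell passed a gate with at least 2 markers and a minimum share of UMIs. Minima were 1% for fibroblast and myeloid cells, 0.3% for endothelial, mural, mesothelial and glial cells, and 0.2% for lymphocytes. Mural, mesothelial and glial gates took precedence over the fibroblast gate, other double passes were called mixed, and cells passing none were left ungated.

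UMIs were summed per type and library and given as CPM with exact Poisson intervals, and ratios have exact conditional binomial intervals. A count of 0 was set to 3 for the ratio, and the interval of such a ratio is open on 1 side. Genes with at least 20 UMIs over both sums entered counts of 2-fold differences. No p-value was computed. The ratio step was tested on simulated counts. All 10 genes are named, and from each other list up to 4 genes whose interval lies farthest from 0. The members, the lists and the gates were chosen with earlier results of these data known. Python 3.11.15, numpy 2.4.6, scipy 1.17.1 and pandas 2.3.3 were used, with matplotlib 3.10.9 for figures.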

Additional observations from a re-analysis of the deposited data

Results flagged for a closer look

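Pi16 was lower in MI fibroblast-gated cells but had 15 UMIs in MI and 0 in Sham mesothelial cells. With that 0 set to the floor count, its log2 ratio in mesothelial cells was 0.82, with a lower limit of 0.34. The libraries' order thus differed between the types. Kcnk2, lower in MI fibroblasts, had 5 UMIs in MI and 0 in Sham endothelial cells, a log2 ratio of 1.51 on the same terms, with a lower limit of 0.64. Neither difference between types was tested. In cells called mixed, which passed more than 1 gate with no precedence between them and entered no comparison, Pi16 had 12 UMIs in 50 MI cells and 11 UMIs in 131 Sham cells, a log2 ratio of 1.48.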

How the results depend on the processing

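With 1 library per condition the intervals leave out differences between animals, and operation, heart number and library cannot be told apart. No paired analysis was possible because each condition has 1 library. In fibroblast-gated cells all 10 genes stayed at least 2-fold lower in MI in 12 of 13 alternatives, and 9 did with mean UMIs per cell (Tcf21 at −0.78). Their median log2 ratio, −4.24, was −4.07 when the gate used 7 other matrix genes, −4.03 with median-of-ratios scaling, where the median of all genes had been −0.20, and −2.36 with mean UMIs per cell. The share of all genes at least 2-fold lower, 19.9%, was 40.1% with no minimum of UMIs and 2.84% with mean UMIs per cell. Across the Acta2 and Tagln bins 6 or 7 genes were at least 2-fold lower in all 11 alternatives, and 17.7% of all genes became 11.3% when cells were split into 4 equal parts by Myl9, Tpm2 and Cnn1. The shares of cells with at least 3 of the 10 genes, 0.616% in MI and 70.7% in Sham, were 2.98% in MI and 92.9% in Sham when thinned to 1000 UMIs, and 30.8% in MI and 96.5% in Sham when not thinned. No direction reversed. The scale per cell, the cells without epicardial UMIs, the joined bins and the Pi16 split in MI were added after seeing the data. Depth limits Kcnk2, Scara5 and all values in mural and mesothelial cells.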

Other observations

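Cells that passed no gate numbered 883 in MI and 665 in Sham. In them Gsn had 126 CPM in MI and 1004 CPM in Sham, Pi16 4.37 CPM in MI and 206 CPM in Sham, Cd34 29.6 CPM in MI and 202 CPM in Sham, and Clec3b 0.485 CPM in MI (1 UMI) and 93.0 CPM in Sham. The single glial-gated MI cell had 1 UMI of Gsn and 0 of the other 9 genes. The 15 glial-gated Sham cells had 44 UMIs of Gsn (2185 CPM, 1588 to 2933), 3 each of Dpep1 and Entpd2, 2 of Cd34, 1 each of Pi16, Tcf21 and Clec3b, and 0 of Scara5, Smoc2 and Kcnk2. For pairs of the 10 genes in Sham fibroblast-gated cells at 500 UMIs, the phi coefficient describes how far they were seen in the same cell. It lay between −0.055 and 0.112 over 1810 cells, all weak at this depth. The highest values were those of Pi16 with Cd34 (0.112) and with Scara5 (0.098). They describe the same association as the Pi16 split and are no separate support for it.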
